A study of Mus musculus with 17 samples.

Results

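Otof, Gm26644 and 4921539H07Rik are 3 genes of the mouse hippocampus that were selected on their measured RNA levels, which were low in CBP-ifKO libraries of every treatment. They are 3 of the 55471 genes of the count table, of which 39260 had at least 1 count. The table holds raw counts per gene from 17 RNA libraries of hippocampi, 8 from controls and 9 from CBP-ifKOs. The mice, aged 3 to 6 months, were C57BL/6 per the labels and C57BL/6J per the study's methods. The study's sample list gives 1 male mouse per library. In CBP-ifKOs the Cre recombinase creERT2, driven by the Camk2a promoter and activated by tamoxifen, truncates CBP by deleting a floxed part of Crebbp. This promoter is active in excitatory neurons of the forebrain, so that other cell types keep an intact gene. The study's methods describe controls as littermates lacking creERT2, although the description of the control samples also names Camk2a_creERT2. Mice of both genotypes received tamoxifen. The treatments were saline without kindling (Sal), kindling by repeated doses of the convulsant pentylenetetrazole (PTZ) with a final saline injection (PTZ0), and kindling with a final injection of 45 mg/kg PTZ (PTZ45). The study reports that kindled controls came to show seizures after PTZ, while none of the CBP-ifKOs reached the stage of progressive seizures. Tissue was collected 45 min after the final injection. There were 2 libraries of Control PTZ45 and 3 of each other group.

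CBP, the product of Crebbp, is a lysine acetyltransferase that is recruited by transcription factors to enhancers and promoters, where it acetylates histones and other proteins. Otof encodes otoferlin, a large membrane protein with several C2 domains that belongs to the ferlin family. Otoferlin is best known from the inner hair cells of the ear, where it acts in calcium-triggered release and replenishment of synaptic vesicles, and its loss causes deafness. Gm26644 and 4921539H07Rik are annotated as long intergenic noncoding RNAs, that is, transcripts without a known protein product that lie outside protein-coding genes. No function is stated for either in the sources used here.

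In build GRCm38, Otof (ENSMUSG00000062372) lies on the minus strand at chr5:30367062-30461932 and overlaps no other annotated gene. Its longest coding transcript has 47 exons, 7129 bases and an open reading frame of 1997 codons. Gm26644 (ENSMUSG00000097683) lies on the minus strand at chr19:44685811-44695460, has 2 annotated transcripts of 2 exons each and overlaps no other gene. 4921539H07Rik (ENSMUSG00000104586) lies on the plus strand at chr3:58117053-58167616 and also has 2 transcripts of 2 exons each. On the opposite strand of 4921539H07Rik lies 1700007F19Rik (ENSMUSG00000100666), another long noncoding RNA gene, at chr3:58141707-58163807. The start of 1700007F19Rik is 125 bases from that of the shorter transcript of 4921539H07Rik, and the pair is transcribed in opposite directions from there.

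A promoter sequence from RefSeq, build GRCm38.p6, was at hand for Gm26644 and for 1700007F19Rik, and that of 1700007F19Rik also spans the start of the shorter transcript of 4921539H07Rik. Each is shown from 250 bases before to 50 bases after the start, on the strand of the named gene, because CBP acts at promoters through DNA-bound factors such as CREB. The capitals mark the match to the short form of the cAMP response element, TGACG or its reverse complement CGTCA, to which CREB can bind. The sequence of Gm26644 is chr19:44695431-44695730 on the minus strand, and that of 1700007F19Rik is chr3:58163758-58164057 on the minus strand.
Gm26644: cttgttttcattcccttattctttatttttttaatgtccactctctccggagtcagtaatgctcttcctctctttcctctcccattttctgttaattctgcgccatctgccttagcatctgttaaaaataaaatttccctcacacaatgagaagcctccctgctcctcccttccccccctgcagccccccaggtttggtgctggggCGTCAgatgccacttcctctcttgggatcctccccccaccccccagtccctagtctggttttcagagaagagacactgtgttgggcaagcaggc
1700007F19Rik: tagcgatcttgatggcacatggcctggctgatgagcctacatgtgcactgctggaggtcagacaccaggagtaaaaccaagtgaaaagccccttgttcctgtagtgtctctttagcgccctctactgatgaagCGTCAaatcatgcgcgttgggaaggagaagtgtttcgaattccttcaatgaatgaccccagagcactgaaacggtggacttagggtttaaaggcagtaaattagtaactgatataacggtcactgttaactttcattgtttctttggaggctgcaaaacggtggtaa

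Each promoter held 1 short element, which began 44 bases before the RefSeq start of Gm26644 and 117 bases before that of 1700007F19Rik. The RefSeq start of Gm26644 lies slightly upstream of the annotated start given above. Searched on both strands, 20.8% of all 32851 promoters of this length hold these letters, so their presence is common. Neither promoter held the full element TGACGTCA, found in 1.79% of all promoters, the AP-1 letters TGANTCA, found in 7.81%, or TATAAA, found in 13.6%. The E-box letters CANNTG occurred 3 times in each and in 72.3% of all promoters. These matches describe letters in the windows and not binding.

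The labels were first checked on the targeted gene. Crebbp stood at 2169 ± 201 normalized counts in controls (SD, n = 8) and at 1214 ± 94.95 in CBP-ifKOs (SD, n = 9), with no overlap in any treatment, where a normalized count is a raw count divided by the size factor of its library. Esr1, the estrogen receptor gene from which the ligand-binding part of creERT2 derives, stood at 57.6 ± 10.9 in controls and at 818 ± 90.5 in CBP-ifKOs. Libraries held 5831992 to 18735643 counts, and CBP-ifKO Sal replicate 2 was the shallowest. Lanes, as named in the library names, coincided largely with genotype: lane 3 held Control Sal and PTZ0, lane 4 held CBP-ifKO Sal and Control PTZ45, and lane 5 held CBP-ifKO PTZ0 and PTZ45. Marker genes of dentate granule cells summed to 5524 to 6973 normalized counts in control libraries and to 5820 to 6785 in CBP-ifKO libraries, so that markers of the labelled tissue were present in both genotypes.

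Otof RNA was detected in every library and was lower in all 9 CBP-ifKO libraries than in all 8 control libraries. In Control Sal it stood at 103, 92.3 and 85.9 normalized counts, in Control PTZ0 at 137, 96.0 and 92.4, and in Control PTZ45 at 110 and 66.3. In CBP-ifKO Sal it stood at 30.1, 35.3 and 14.04 normalized counts, in CBP-ifKO PTZ0 at 35.3, 33.4 and 33.1, and in CBP-ifKO PTZ45 at 27.3, 34.0 and 18.9. The highest CBP-ifKO library thus lay below the lowest control library, Control PTZ45 replicate 2. The mean was 97.8 ± 20.3 in controls and 29.1 ± 7.67 in CBP-ifKOs, or 29.7% of the control mean. The raw counts behind these values were 61 to 156 in controls and 16 to 47 in CBP-ifKOs. With the treatment as a term, the log2 fold change of CBP-ifKO against control was -1.77 (SE 0.16), and no p is given because this difference chose the gene.

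Gm26644 RNA varied less among controls than that of Otof and was likewise low in every CBP-ifKO library. It stood at 154.3, 153.9 and 153.7 normalized counts in Control Sal, at 142, 138 and 123 in Control PTZ0, and at 153.0 and 153.2 in Control PTZ45. In CBP-ifKO Sal it stood at 50.6, 64.3 and 43.6, in CBP-ifKO PTZ0 at 25.6, 64.9 and 39.4, and in CBP-ifKO PTZ45 at 37.9, 43.0 and 57.8. The 3 Control Sal libraries lay closer together than counting noise predicts, with a coefficient of variation of 0.193% beside 7.80% for Poisson counts of this depth, so the spread of this group understates the error. The means over treatments were 146.4 ± 11.3 in controls and 47.5 ± 13.1 in CBP-ifKOs, which is 32.4%. The raw counts were 118 to 198 in controls and 21 to 79 in CBP-ifKOs. The log2 fold change was -1.65 (SE 0.12), given as a description as for Otof.

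4921539H07Rik had the highest normalized count of the 3 genes in controls. Control Sal libraries stood at 143, 165 and 233 normalized counts, Control PTZ0 libraries at 148, 207 and 214, and Control PTZ45 libraries at 168 and 190. CBP-ifKO Sal libraries stood at 66.6, 56.0 and 55.4, CBP-ifKO PTZ0 libraries at 69.4, 81.1 and 57.6, and CBP-ifKO PTZ45 libraries at 54.7, 83.0 and 59.0. Again no CBP-ifKO library reached the lowest control library, Control Sal replicate 1. The means were 183.6 ± 32.8 in controls and 64.8 ± 11.04 in CBP-ifKOs, which is 35.3%, from raw counts of 134 to 258 and 27 to 104. The log2 fold change was -1.50 (SE 0.12), without a test.

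**Figure D1:**
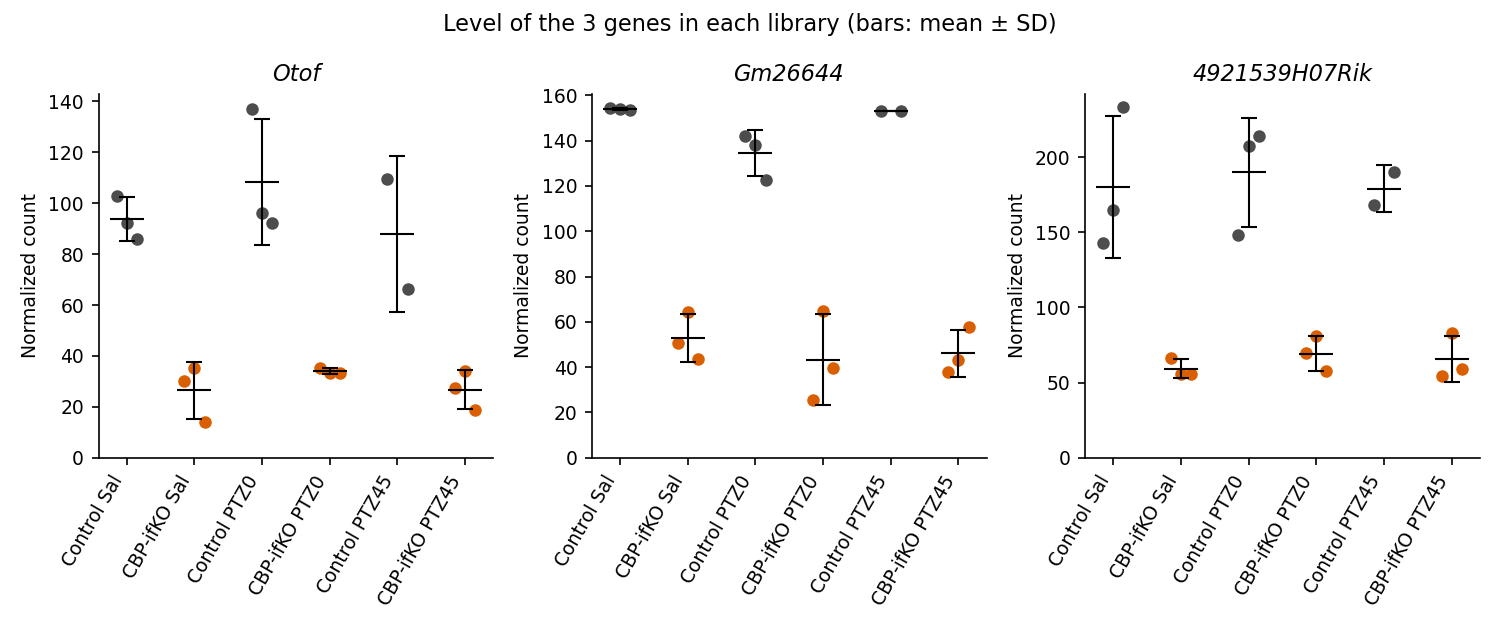
Normalized counts (vertical axes, from 0) of Otof, Gm26644 and 4921539H07Rik in the 17 libraries by group, with a point for each library and bars for the mean ± SD. In all 3 genes the orange CBP-ifKO points, at most 83.0, lie below the grey control points of the same gene in each treatment.

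Such a separation is not rare in this table. Of the 15836 genes whose mean reached 20 normalized counts, 2.48% had every CBP-ifKO library below every control library, and the 3 genes belong to these by the way they were chosen. In each gene the CBP-ifKO level was lower than that of Crebbp relative to control, 29.7% to 35.3% beside 55.9%. Crebbp RNA does not measure the CBP left, because the study describes a truncated protein that CBP-ifKOs still express. In these bulk libraries fewer cells that hold an RNA and less of it per cell cannot be told apart, nor can RNA from cells that keep CBP be separated from RNA of recombined neurons. All 3 genes are also in the study's own list of genes lowered in CBP-ifKOs, which was made partly from these Sal libraries, so that list is not independent evidence.

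Per kilobase of annotated exons, the order of the genes was different. Gm26644 had 49.0 ± 3.80 normalized counts per kilobase in controls and 15.9 ± 4.39 in CBP-ifKOs, 4921539H07Rik had 42.5 ± 7.58 and 15.0 ± 2.55, and Otof had 12.4 ± 2.57 and 3.68 ± 0.971. Otof was therefore the least abundant per length in both genotypes, while Gm26644 and 4921539H07Rik did not differ beyond their spread in either.

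The genotype difference of the 3 genes was of like size in each treatment. In Sal, PTZ0 and PTZ45 the CBP-ifKO mean of Otof was 28.3%, 31.3% and 30.4% of the control mean. For Gm26644 these values were 34.3%, 32.2% and 30.2%, and for 4921539H07Rik they were 32.9%, 36.5% and 36.6%. Fitted within a treatment, the log2 fold change of Otof was -1.90 (SE 0.31) in Sal, -1.68 (SE 0.26) in PTZ0 and -1.71 (SE 0.38) in PTZ45. That of Gm26644 was -1.60 (SE 0.22), -1.62 (SE 0.26) and -1.73 (SE 0.28), and that of 4921539H07Rik was -1.59 (SE 0.23), -1.46 (SE 0.21) and -1.44 (SE 0.25). Within each gene the 3 values differed by less than the smallest of their SEs. The choice of genes that are low in every treatment favours such a likeness, so it is described and not tested.

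Among the 13041 genes whose mean reached 50 normalized counts, ordered by the log2 fold change over all treatments from the lowest, Otof came 2nd, Gm26644 4th and 4921539H07Rik 7th. The other genes among the lowest 10 were Npas4, C1ql2, Fos, Fosb, Egr2, Gm15564 and Penk. Npas4, Fos, Fosb and Egr2 are immediate early genes, transcription factor genes that neuronal activity switches on within minutes. Their genotype difference lay mostly in PTZ45, and the part of seizures, which differed between genotypes during kindling, was not tested. For Npas4 the log2 fold change was -0.64 in Sal, -0.80 in PTZ0 and -4.51 in PTZ45, and for Fos it was -0.36, -0.90 and -3.53. By contrast C1ql2, which encodes a secreted C1q-like protein of mossy fibre synapses, had -1.52, -1.73 and -1.72. Penk, the gene of the opioid precursor proenkephalin, had -1.24, -1.29 and -1.58.

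**Figure D2:**
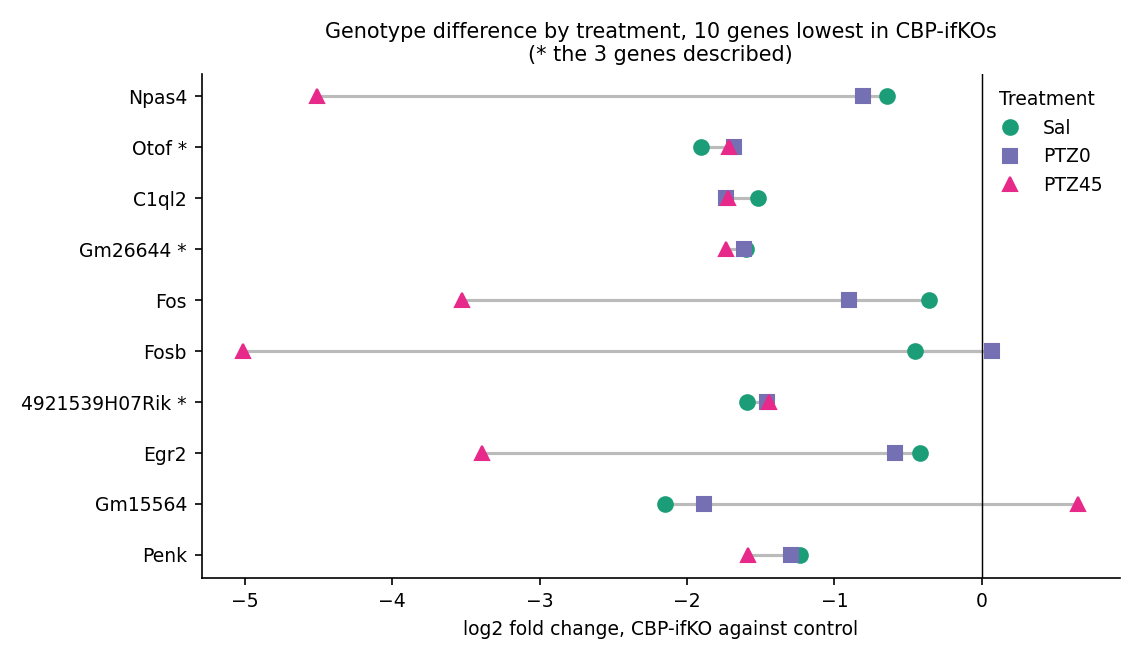
Log2 fold change of CBP-ifKO against control (horizontal axis) within Sal (circles), PTZ0 (squares) and PTZ45 (triangles) for the 10 genes with the lowest value over all treatments among genes whose mean reached 50 normalized counts. The 3 genes marked with an asterisk stay between -1.90 and -1.44, while Npas4 runs from -0.64 to -4.51.

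The place of the 3 genes in this order therefore moved with the treatment. In Sal they came 2nd, 3rd and 4th of 13041 genes, in PTZ0 3rd, 4th and 7th, and in PTZ45 Gm26644 came 31st, Otof 33rd and 4921539H07Rik 46th. Among the 1261 long noncoding genes of this level, Gm26644 came 1st and 4921539H07Rik 2nd over all treatments. In Sal and in PTZ0 they came 2nd and 3rd, and in PTZ45 they came 7th and 11th. The 3rd over all treatments was Gm15564, at -1.38 (SE 0.52), and the 4th A830036E02Rik, at -0.87 (SE 0.07). Gm15564 changed direction with the treatment, at -2.15 in Sal, -1.88 in PTZ0 and 0.65 in PTZ45. Over all treatments, long noncoding genes were called lower about as often as higher. Of the 3696 tested, 3.92% were called lower and 3.84% higher at a Benjamini-Hochberg adjusted p under 0.05 in the DESeq2 Wald test, and their median log2 fold change was 0.05, beside 11.5% lower, 7.76% higher and a median of 0.01 over all 18682 genes tested. The counts were also close in edgeR, with 173 lower and 183 higher, in Sal alone, with 7 lower and 5 higher (median 0.05), and in PTZ0 alone, with 14 lower and 17 higher (median 0.08). They were uneven in PTZ45 alone, with 34 lower and 6 higher (median -0.04), with the lane as a term, with 17 lower and 0 higher (median -0.08), and within lane 4, with 50 lower and 5 higher (median -0.05).

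Lanes could be compared in part. In lane 4, which holds CBP-ifKO Sal and Control PTZ45 so that treatment differs as well, the log2 fold change of CBP-ifKO against control was -1.80 (SE 0.42) for Otof, -1.58 (SE 0.27) for Gm26644 and -1.58 (SE 0.25) for 4921539H07Rik. With the lane as a term over all 17 libraries, the values were -1.94 (SE 0.52), -1.72 (SE 0.40) and -1.58 (SE 0.39). These values were of like size to those without the lane, with wider errors. As the same libraries chose the genes, they are a description and no test of a lane effect.

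The next question was whether the 3 genes respond to kindling or to PTZ. Their choice did not compare treatments, but asking for low levels in CBP-ifKO libraries of every treatment disfavours genes that PTZ raises there, so the values in CBP-ifKOs are no independent sign of a missing response. None was called in any of 6 comparisons of treatments within a genotype. In controls, the log2 fold change of PTZ45 against Sal was -0.09 (SE 0.27) for Otof, -0.01 (SE 0.19) for Gm26644 and -0.01 (SE 0.22) for 4921539H07Rik, with adjusted p of 0.994, 0.998 and 0.998 in the DESeq2 Wald test, where 1.17% of all genes were called. In CBP-ifKOs the same comparison gave 0.07 (SE 0.44), -0.17 (SE 0.31) and 0.13 (SE 0.28), where 0.294% of genes were called.

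Kindling followed by saline gave larger differences, which were not called either. The log2 fold change of PTZ0 against Sal was 0.21 (SE 0.21) for Otof, -0.20 (SE 0.16) for Gm26644 and 0.07 (SE 0.19) for 4921539H07Rik in controls, and 0.41 (SE 0.40), -0.25 (SE 0.34) and 0.21 (SE 0.27) in CBP-ifKOs. These comparisons called few genes of the whole table, 0.00843% in controls and 0.0112% in CBP-ifKOs. PTZ45 against PTZ0 gave -0.30 (SE 0.27), 0.19 (SE 0.20) and -0.09 (SE 0.20) in controls, where 1.25% of genes were called, and -0.33 (SE 0.37), 0.08 (SE 0.35) and -0.07 (SE 0.27) in CBP-ifKOs, where 0.0872% were called. Comparisons of one genotype share libraries.

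Over these 18 tests, 0 passed in DESeq2, 0 had an unadjusted p under 0.05, the lowest being 0.222, and 0 passed in the quasi-likelihood test of edgeR. The 95% confidence intervals show what the libraries could not detect. For Gm26644 in controls, PTZ45 against Sal had an interval of -0.38 to 0.36 on the log2 scale, and that of 4921539H07Rik was -0.44 to 0.41. For Otof it was -0.61 to 0.44 in controls and -0.80 to 0.93 in CBP-ifKOs, where fewer counts were available. A p that misses the threshold does not show that the levels were equal. Gm26644 was lower in all 3 Control PTZ0 libraries than in all 3 Control Sal libraries, with means of 134.4 and 154.0 normalized counts, and this difference did not pass the test (unadjusted p = 0.222, adjusted p = 0.9998 in DESeq2). Its 2 Control PTZ45 libraries, with a mean of 153.1, lay above all Control PTZ0 libraries and below all Control Sal libraries, and neither difference was called.

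**Figure D3:**
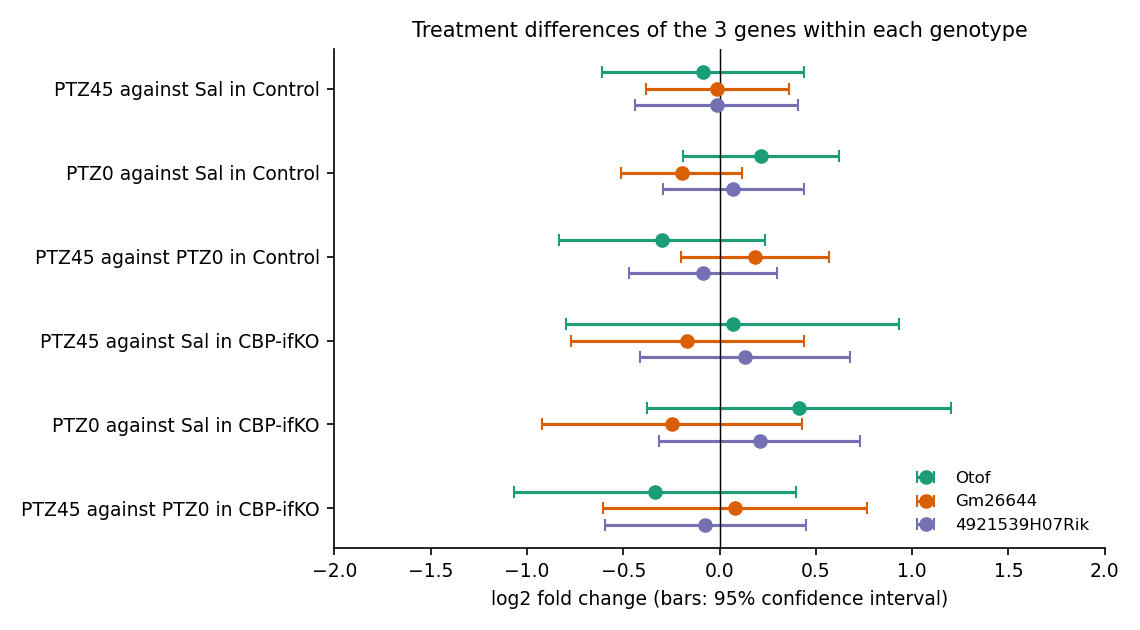
Log2 fold changes between treatments (horizontal axis) of Otof, Gm26644 and 4921539H07Rik within each genotype, with bars for the 95% confidence interval. All 18 intervals include 0, and those of Otof in CBP-ifKOs are the widest, reaching from -1.06 to 1.20 over the 3 comparisons.

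The response to PTZ45 over Sal was also compared between genotypes. The interaction term was 0.18 (SE 0.47) for Otof, -0.14 (SE 0.31) for Gm26644 and 0.14 (SE 0.33) for 4921539H07Rik, and none passed (adjusted p = 0.99998 for each in DESeq2, with 0 of 3 under an unadjusted p of 0.05 and 0 in edgeR). In this comparison 0.329% of all genes were called, all of them with a lower response in CBP-ifKOs. Choosing genes that are low in every treatment favours small interactions, so these values are no independent sign of a constant difference.

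Genomic neighbours were examined next, because the sources used here state no function for Gm26644 and 4921539H07Rik. The annotation holds 106 genes within 500 kb of an end of the 3 genes, of which 44 reached a mean of 20 normalized counts. Over all treatments 6 of the 44 were called lower and 7 higher in CBP-ifKOs, or 29.5%, beside 22.1% of all genes of that level and 19.3% of all genes tested. Their median log2 fold change was -0.01, and 2 of them, 1700007F19Rik and Cenpa, fell at least 2-fold, beside 0.278% of all genes of that level. Most of these calls were lost with the lane in the fit: with the lane as a term, 1 neighbour was called lower and 0 higher, where the whole table also fell to 132 genes called lower and 3 higher, and in lane 4 alone 1 was called lower and 1 higher, beside 473 and 55 of the 15483 genes tested. Each called neighbour kept its direction in every alternative. Some log2 fold changes were of similar size throughout, at 0.35 to 0.58 for Agbl5, 0.27 to 0.37 for Commd2 and -0.37 to -0.21 for Sfxn3, and that of Cgref1 came down from 0.28 to 0.002 with the lane as a term.

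1700007F19Rik, which starts beside 4921539H07Rik on the other strand, was the neighbour most like its partner. In controls it stood at 24.9, 25.9 and 45.2 normalized counts in Sal, at 35.1, 39.8 and 43.8 in PTZ0, and at 25.6 and 35.9 in PTZ45. In CBP-ifKOs it stood at 14.1, 10.4 and 14.04 in Sal, at 15.8, 14.3 and 16.6 in PTZ0, and at 14.7, 20.0 and 16.5 in PTZ45. The genotypes did not overlap, and the CBP-ifKO mean was 43.9% of the control mean. Its log2 fold change was -1.17 (SE 0.20, adjusted p = 1.54e-07 in DESeq2), and it was no longer called with the lane as a term, at -0.76 (SE 0.66). In the single treatments its counts were too low for an adjusted p, and the values were -1.28 (SE 0.45) in Sal, -1.34 (SE 0.38) in PTZ0 and -0.84 (SE 0.51) in PTZ45.

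Reads of this pair could be confused. Exons of 1700007F19Rik and 4921539H07Rik share 214 bases, which is 13.03% of the exonic bases of the former and 4.95% of those of the latter, and the sources used here do not state whether the counting used the strand. Within controls, the log2 levels of the pair moved together over the 8 libraries, with Pearson's r = 0.82 (exact permutation p = 0.0199) and Spearman's rho = 0.90 (exact permutation p = 0.00456). Over the 12 relations computed among the 3 genes and 1700007F19Rik in the 2 genotypes, this one did not pass the Benjamini-Hochberg adjustment (exact permutation test, adjusted p = 0.238), and r was 0.67 over the 6 libraries left without the 2 farthest from the median. In CBP-ifKOs r was 0.47 and rho was 0.45 over 9 libraries (exact permutation p = 0.215 and 0.230). The libraries of a genotype pool the treatments. None of the other relations passed either, with adjusted p of at least 0.461 in the exact permutation test.

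The further neighbours of 4921539H07Rik changed little. Of the 11 measured, Pfn2, which encodes the actin-binding protein profilin 2 and lies 269 kb upstream, was called lower with a log2 fold change of -0.16 (SE 0.04). Commd2, 465 kb upstream, was called higher with 0.31 (SE 0.09), and the other 8 were not called. Gm26644 has no well-expressed gene close by. The nearest protein-coding gene, Pax2, a transcription factor gene of kidney, ear and midbrain development, lies 60.6 kb upstream on the opposite strand and had a mean of 1.02 normalized counts. The nearest measured genes, Hif1an, an asparagine hydroxylase gene of oxygen sensing at 109.5 kb, and Ndufb8, a respiratory complex I subunit gene at 130.4 kb, had log2 fold changes of 0.09 (SE 0.05) and -0.06 (SE 0.07) and were not called. Of its 12 measured neighbours, Sfxn3, a mitochondrial sideroflexin gene, was called lower at -0.25 (SE 0.06), and Sema4g, a semaphorin gene, and Scd1, a stearoyl-CoA desaturase gene, were called higher at 0.38 (SE 0.10) and 0.12 (SE 0.04). The call of Scd1 was lost in 11 of 23 alternatives.

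Drc1, a gene of the regulatory complex of motile cilia, ends 367 bases from the end of Otof and is transcribed towards it. It stood at 128.3 ± 9.97 normalized counts in controls and 119.9 ± 16.8 in CBP-ifKOs and was not called (log2 fold change -0.10, SE 0.10, adjusted p = 0.530 in DESeq2). Upstream of Otof, Gm9899, a noncoding transcript 112.1 kb away, fell from 98.9 ± 9.37 to 62.6 ± 7.02 normalized counts without overlap of the genotypes (log2 fold change -0.64, SE 0.10, adjusted p = 2.52e-08 in DESeq2). Kcnk3, the gene of the background potassium channel TASK-1, overlaps Gm9899 on the other strand, so that reads of the pair may be confused, and fell from 71.4 ± 9.004 to 55.3 ± 8.56 (log2 fold change -0.42, SE 0.12, adjusted p = 0.00410 in DESeq2). Both kept their direction with the lane as a term, at -0.34 and -0.70, but were no longer called. Of the 21 measured neighbours, Tmem214, Agbl5, 5930420M18Rik and Cgref1, all over 400 kb upstream, were called higher with log2 fold changes of 0.27 to 0.41.

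Cenpa, which encodes the centromeric histone H3 variant CENP-A and lies 204.8 kb upstream of Otof, differed from Otof in its pattern. It stood at 13.6 to 21.9 normalized counts in the 6 Control Sal and Control PTZ0 libraries and at 151 and 113 in the 2 Control PTZ45 libraries. In CBP-ifKOs it stood at 3.65 to 23.6 in all 9 libraries, with 13.7, 8.997 and 23.6 in PTZ45. Its difference thus lay in PTZ45, with a log2 fold change of CBP-ifKO against control of -3.12 (SE 0.38, adjusted p = 1.03e-13 in DESeq2), while in the same 2 Control PTZ45 libraries Otof stood at 110 and 66.3. Cenpa was the only one of the 44 neighbours called in a comparison of treatments or in the interaction by DESeq2.

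**Figure D4:**
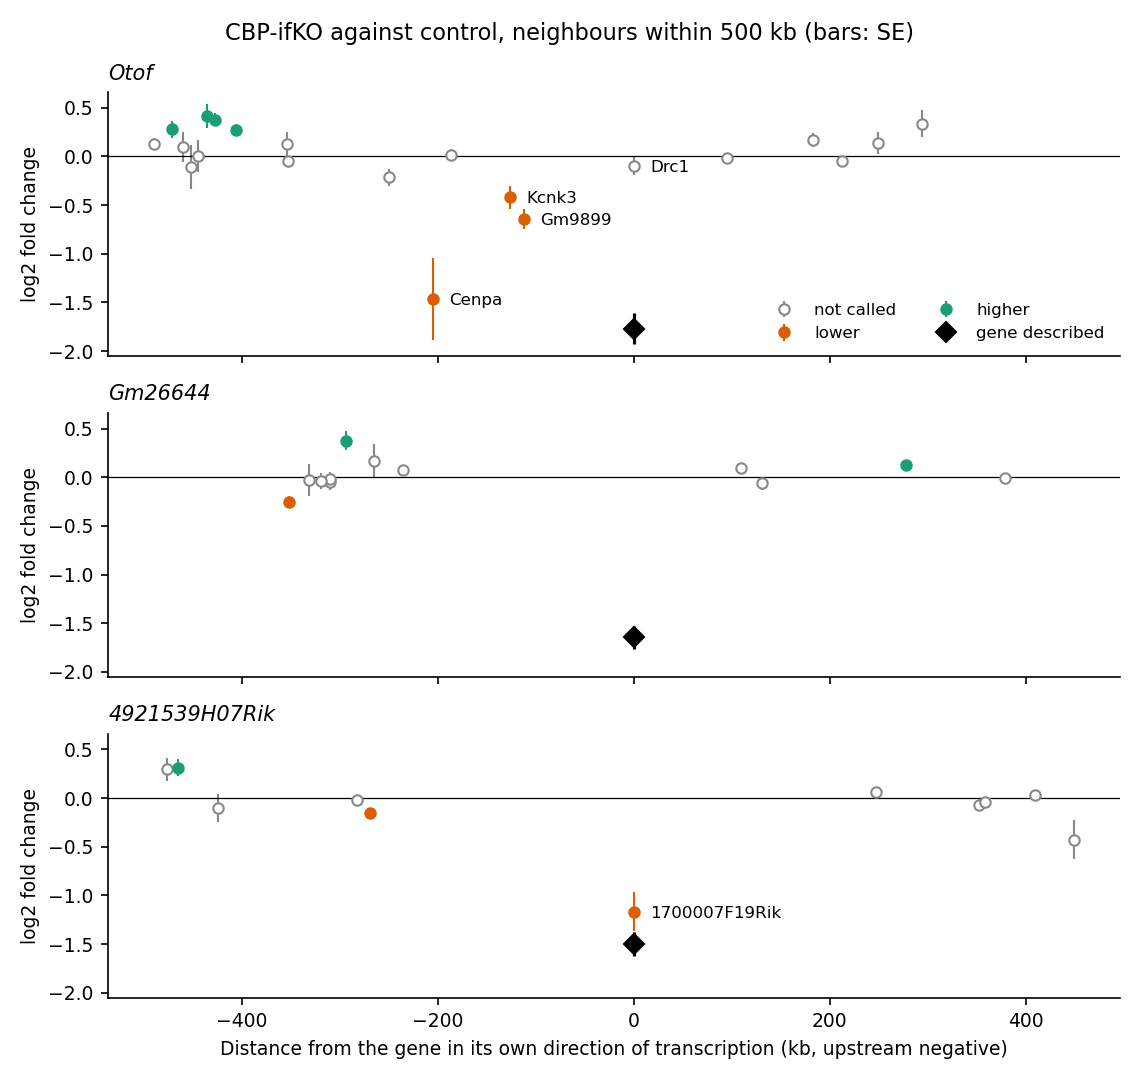
Log2 fold change of CBP-ifKO against control over all treatments (vertical axes, bars: SE) of the 44 measured neighbours by their distance in kb from Otof, Gm26644 or 4921539H07Rik (diamonds at 0), with upstream negative in the direction of transcription. Most neighbours lie near 0, and 1700007F19Rik (-1.17) and Cenpa (-1.46) come closest to the diamonds.

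Within single treatments fewer neighbours were called. In Sal 0 of 40 with an adjusted p passed, with 4 at an unadjusted p under 0.05 and 0 in edgeR, where 2.04% of all genes passed in DESeq2. In PTZ0 Gm9899 passed, 1 of 33, where 6.68% of all genes did, and it was not called without Control PTZ0 replicate 2 or 3 or CBP-ifKO PTZ0 replicate 3. In PTZ45 Cenpa and Tmem214 passed, 2 of 42, where 3.07% of all genes did, and leaving out any of the 5 libraries left 1 call.

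Other genes linked to otoferlin were counted from lists of its family and of its partners in exocytosis. Of the 5 other ferlins, Dysf, Myof and Fer1l5 could be tested and none was called, with log2 fold changes of 0.05 (SE 0.19), -0.07 (SE 0.29) and 0.09 (SE 0.10), where 0 had an unadjusted p under 0.05 and 0 passed in edgeR. Dysf, the dysferlin gene of membrane repair, stood at 30.8 ± 7.67 and 31.6 ± 7.86 normalized counts in controls and CBP-ifKOs, and Myof, the myoferlin gene, at 137.1 ± 19.2 and 129.3 ± 67.2. Fer1l4 and Fer1l6 had means under 4 normalized counts in each genotype and no adjusted p.

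Of 21 tested genes of the exocytosis list, 10 were called lower and 0 higher, beside 11.5% and 7.76% of all genes, and 2 were higher at an unadjusted p under 0.05 with 0 higher in edgeR. Their median log2 fold change was -0.09, far from that of Otof. Among the lower ones were the SNARE genes Snap25 (-0.19, SE 0.03) and Stx1a (-0.22, SE 0.06), the SNARE-disassembling ATPase gene Nsf (-0.28, SE 0.03), the calmodulin genes Calm2 (-0.27, SE 0.06) and Calm3 (-0.33, SE 0.06), the calcium-binding protein gene Cabp1 (-0.40, SE 0.05), the vesicle traffic gene Rab8b (-0.23, SE 0.04) and the synaptotagmin genes Syt1 (-0.12, SE 0.03) and Syt2 (-0.34, SE 0.09). Slc17a8, the vesicular glutamate transporter gene that hair cells use, had 0.30 (SE 0.14) and was not called (adjusted p = 0.141 in DESeq2). Without Control PTZ0 replicate 2 it was called higher, at 0.40 (SE 0.14, adjusted p = 0.0276 in DESeq2). Cacna1d and Myo6, also of the list, were not called in 20 of 23 alternatives each. In the other alternatives Cacna1d was called higher and Myo6 lower. With the lane as a term, 0 of the list were called lower, beside 132 of 15643 genes tested, and in lane 4 alone 4 were, beside 473 of 15483.

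Several marker genes of hippocampal cell types were also called, where 11.5% of all genes were called lower and 7.76% higher. Of 7 dentate granule cell markers, 3 were called lower, C1ql2 at -1.66 (SE 0.10), Plk5 at -0.38 (SE 0.10) and Dock10 at -0.15 (SE 0.04), and 2 higher, Prox1 at 0.26 (SE 0.06) and Lct at 0.75 (SE 0.09). Of 5 CA1 markers 4 were called lower, with Wfs1 at -1.11 (SE 0.07), and their sum was 4118 to 4852 normalized counts in controls and 2827 to 3818 in CBP-ifKOs. Of 5 CA2 markers 3 were called lower, with Rgs14 at -1.09 (SE 0.08), and 1 higher, Map3k15, whose call was lost in 10 of 23 alternatives, and their sum was 1433 to 1761 and 862 to 1120. With the lane as a term, the calls of C1ql2, Wfs1 and Rgs14 were kept and those of the other dentate, CA1 and CA2 markers were lost. All of these markers had counts, and their part in the levels of Otof, Gm26644 and 4921539H07Rik was not tested.

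Tissue next to the hippocampus was examined in the same way. Of 8 neocortical markers 3 were called lower, Tle4 at -0.22 (SE 0.04), Scnn1a at -0.84 (SE 0.21) and Tshz2 at -0.42 (SE 0.15), whose call was lost in 13 of 23 alternatives, and the sum was 3320 to 4264 normalized counts in controls and 2744 to 3907 in CBP-ifKOs. The 5 markers of the choroid plexus summed to 435 to 24297 and to 448 to 44033, ranges that overlap, although the highest CBP-ifKO library lay above every control library. Ttr, the transthyretin gene, had a mean of 4350 ± 7944 normalized counts in controls and 11042 ± 16668 in CBP-ifKOs, and 1 of the 5 markers, Kl, could be tested and was not called (log2 fold change 0.94, SE 0.52). Kl was called higher in 1 of the 12 alternatives that gave an adjusted p, the one without the PTZ0 control replicate 2. With the replicate block Ttr and Folr1 were called higher, at 3.44 (SE 1.23) and 3.31 (SE 1.06), and neither was called in the other alternatives that gave an adjusted p. Interneuron markers gave 2 of 7 lower, astrocyte markers 3 of 5 (2 in edgeR, and the call of Gja1 was lost in 16 of 23 alternatives) and CA3 markers 1 of 5, beside 11.5% of all genes, and none of the 4 oligodendrocyte, 5 microglia or 3 endothelial markers was called in DESeq2 or in edgeR, with 2 oligodendrocyte markers and no others at an unadjusted p under 0.05. With 1 library left out, the oligodendrocyte genes Mbp and Mag were called lower in 3 alternatives each, both of them without the CBP-ifKO Sal replicate 3 and without the PTZ45 control replicate 1, and Csf1r of microglia in 1, without the CBP-ifKO Sal replicate 3. The part of these cell types in the levels of the 3 genes was not tested either.

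Genes whose levels ran most like those of the 3 genes over the 17 libraries were taken from the 15836 genes whose mean reached 20 normalized counts, by the root mean square difference of centred log2 levels, which is 0 for an identical profile. For Otof they were C1ql2 (0.40), Wnt4 (0.42), 4921539H07Rik (0.43), Pappa2 (0.44) and Grp (0.44), beside a median of 0.96 over all genes compared. Gm26644 was followed by C1ql2 (0.29), Penk (0.32), Wnt4 (0.35), Grp (0.36) and 4921539H07Rik (0.39), beside a median of 0.89. Those nearest to 4921539H07Rik were Wnt4 (0.28), 1700007F19Rik (0.28), Grp (0.29), Penk (0.32) and Pdyn (0.32), beside a median of 0.80. With library totals in place of size factors as the scale, 3, 4 and 4 of the nearest 5 were the same.

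Of the protein-coding genes among these, Grp encodes gastrin-releasing peptide, Pdyn the opioid precursor prodynorphin, Wnt4 a Wnt ligand and Pappa2 a protease that cleaves insulin-like growth factor binding proteins. Wnt4 stood at 99.1 ± 13.6 normalized counts in controls and at 40.2 ± 7.83 in CBP-ifKOs, and Grp at 195 ± 21.7 and 83.9 ± 10.2. C1ql2 stood at 294 ± 41.5 and 93.6 ± 19.9, or 31.8% of control, the share closest to that of the 3 genes among the genes named here. All were ranked on the same libraries, and the ranking favours any gene with a large genotype difference and no treatment response.

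**Figure D5:**
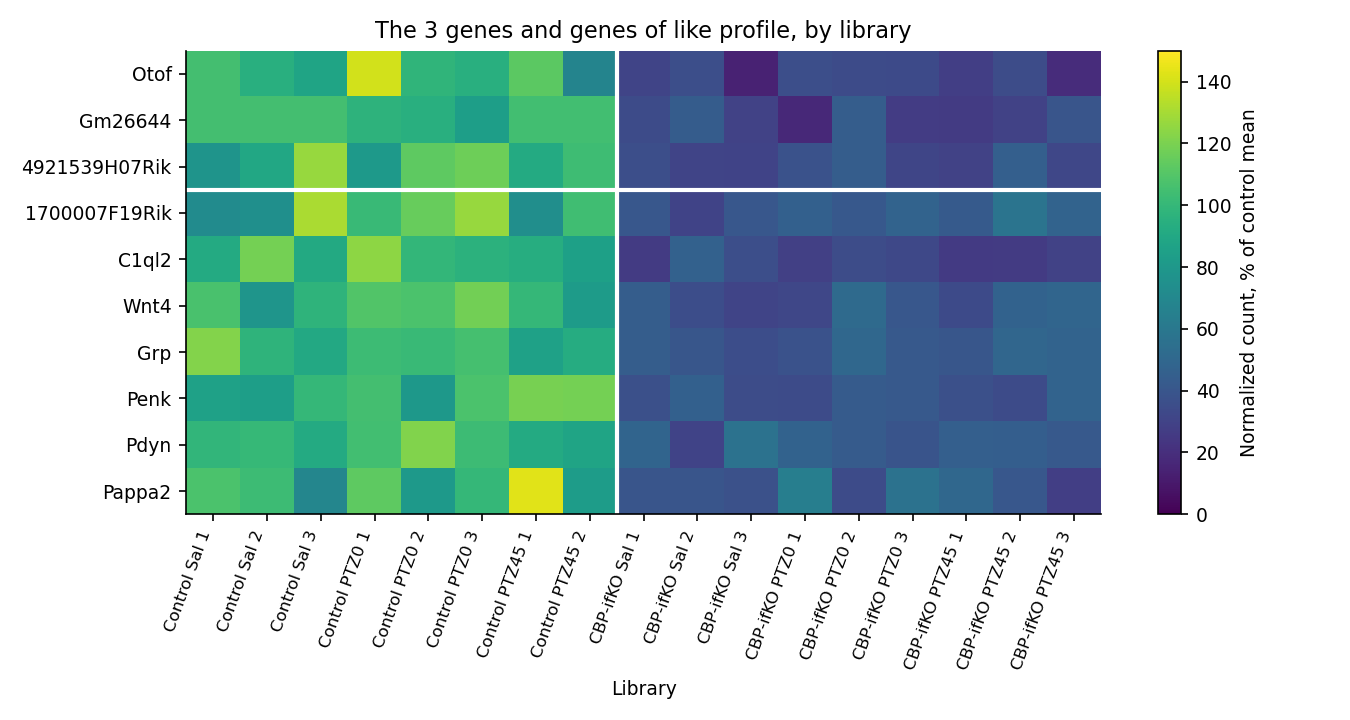
Normalized counts as a percentage of the control mean (colour) of Otof, Gm26644 and 4921539H07Rik (top rows) and of 7 genes of like profile in the 17 libraries, with controls left of the white line and CBP-ifKOs right of it. Every row is darker in all CBP-ifKO libraries, with the 3 genes between 14.4% and 45.2%.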

How the data were processed

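RNA of 17 hippocampal samples was analysed from counts. The authors deposited raw counts per gene, which are not normalized. Per the labels and the study's methods, single-end reads of 50 bases were trimmed with Trim Galore 0.6.4, aligned with STAR 2.6.1 to GRCm38, filtered at a mapping quality above 10 and counted on exons of Ensembl 99 with Rsubread. The strand setting is not given in the sources used here. Of 18 count columns, 1 matched no sample and was not used. Of the gene IDs, 99.6% were in GENCODE M21, from which symbols, types and positions of build GRCm38 were taken. Promoters came from RefSeq.

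Counts were tested with the two-sided Wald test of DESeq2 1.42.0 in R 4.3.3 over all genes with at least 1 count, with a Benjamini-Hochberg adjusted p under 0.05 for a call. The genotype over all treatments had the treatment as a term, pairs of groups were fitted alone, and the interaction used the Sal and PTZ45 libraries. Confidence intervals are 1.96 SE to each side and, like p-values, measure the spread between these samples. The code of the fit was also run on simulated counts with known differences, and the outcome is not given here. The members, lists and tests were chosen with earlier results of these data known. The text names the 3 genes, Crebbp, Esr1, neighbours within 500 kb whose mean reached 20 normalized counts, genes called in a list (1 gene is not reported here, and some lists are given by counts and examples), the 5 nearest profiles (pseudocount 1) and the genes lowest in CBP-ifKOs. Other names (Pax2 among the neighbours, the other ferlins, Slc17a8, Kl, Ttr and the long noncoding genes next in rank) were chosen after their values were seen. The names Cacna1d and Myo6 were chosen in the same way.

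The alternatives tried were edgeR 4.0.16 (quasi-likelihood test with TMM), TMM size factors, a count filter (10 or more in 2 or more libraries), 1 fit of all libraries, lane terms, the replicate block and leaving out each library. No 2 libraries of a group agreed within sampling noise (chi-square per degree of freedom 2.31 to 18.01). Libraries with the same replicate number in different groups did not deviate together (median r -0.06 over 40 pairs, 15 over 0.1), so the numbers were not read as pairs.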

Additional observations from a re-analysis of the deposited data

Results flagged for a closer look

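Cenpa, a neighbour of Otof, was the one gene among the 3 genes and their 44 measured neighbours whose response to PTZ differed between genotypes by the interaction term. The log2 fold change of PTZ45 against Sal reached 3.07 (SE 0.34) among controls, beside 0.48 (SE 0.63) among CBP-ifKOs, and the interaction was -2.65 (SE 0.60, adjusted p = 0.00472 in DESeq2). In edgeR the interaction had an adjusted p of 0.0678. It was not called without CBP-ifKO Sal replicate 3 (-2.05, adjusted p = 0.426 in DESeq2). The interaction was -2.39 without Control PTZ45 replicate 1 and -2.82 without Control PTZ45 replicate 2. Each of these fits leaves 1 library in Control PTZ45, so no p is given for them. Of the 8 control and 9 CBP-ifKO levels of Otof, Gm26644, 4921539H07Rik and 1700007F19Rik, no library passed Dixon's criterion for a value far from the others.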

How the results depend on the processing

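The genotype difference of the 3 genes kept its direction in each of 23 alternatives, at -1.94 to -1.66 for Otof, -1.75 to -1.58 for Gm26644 and -1.58 to -1.42 for 4921539H07Rik. Within a treatment, Gm26644 in PTZ0 moved to -2.02 without CBP-ifKO PTZ0 replicate 2, and Otof in PTZ45 moved to -1.30 without Control PTZ45 replicate 1. With 16 to 47 raw counts of Otof in CBP-ifKOs, small treatment differences could not be detected there. With the lane as a term, 1 neighbour was called lower and 0 higher in place of 6 and 7, and 0 in place of 10 genes of exocytosis lower. Within lane 4, these counts were 1, 1 and 4. The cause was not tested. In Sal, 1 fit of all libraries called 3 neighbours in place of 0, and leaving out a library gave 0 to 2. In PTZ0, edgeR, TMM size factors and the count filter called 2 in place of 1, and leaving out a library gave 0 to 1. In PTZ45 leaving out a library gave 1 in place of 2. With the replicate block, the genotype difference was -1.73, -1.64 and -1.50 for Otof, Gm26644 and 4921539H07Rik, 0 neighbours were called in PTZ0 and 1 in PTZ45, and 4921539H07Rik turned to 0.22 for PTZ45 against Sal and to 0.025 for PTZ45 against PTZ0 in controls.

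None of the treatment differences was called, and several changed sign when a library was left out. For Otof, PTZ45 against Sal ran from -0.50 to 0.22 in controls and from -0.27 to 0.27 in CBP-ifKOs, PTZ45 against PTZ0 in controls from -0.41 to 0.012 (and -0.72 without Control PTZ45 replicate 1, where it had no adjusted p), and the interaction from -0.16 to 0.59. For Gm26644 in CBP-ifKOs, PTZ0 against Sal ran from -0.65 to 0.0060 and PTZ45 against PTZ0 from -0.17 to 0.48. For 4921539H07Rik in controls, PTZ45 against Sal ran from -0.16 to 0.22, PTZ0 against Sal from -0.026 to 0.31 (and -0.081 without Control Sal replicate 1, where it had no adjusted p) and PTZ45 against PTZ0 from -0.24 to 0.014. In CBP-ifKOs its PTZ45 against Sal ran from -0.077 to 0.25 and PTZ45 against PTZ0 from -0.29 to 0.056, and its interaction from -0.091 to 0.29.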
